A study of Mus musculus with 16 samples.

Results

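The keratins and cornified envelope genes of mouse airway epithelium were followed across 4 groups of arrays. The members were the genes whose current symbol is Krt and a digit, or begins with Krtap, Sprr or Lce, together with Ivl, Lor, Rptn, Flg and Tchh. The keratins of basal cells, Krt5, Krt14, Krt15 and Krt17, were left out of the set. This rule used names and no measured value. It found 97 genes among the 17178 genes with a symbol that had a probe, and 53 further genes of these families in the RefSeq annotation, among them Flg and Tchh, had no matched probe. The 97 genes were 35 keratins, 33 keratin-associated proteins, 14 Lce genes, 12 Sprr genes, and Ivl, Lor and Rptn.

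RNA of airway epithelium from FvB mice was hybridised to 16 one-colour arrays, 4 in each group. Wild-type mice (wt) and mice with a knockout of Itgb6 (ko), the gene of the integrin subunit beta6, were compared after ovalbumin (OVA), a chicken egg protein used as an allergen, or after saline. OVA mice were injected in the abdomen with 20 ug on days 1, 4 and 7, followed by weekly nasal doses of 10 ug over 9 weeks. Saline took the place of OVA in the controls, and epithelium was collected 24 h after the last dose from mice that were 6 to 8 weeks old at sensitization. The groups are called wt_saline, wt_OVA, ko_saline and ko_OVA. The labels name no promoter or cell type for the knockout. No label says that the 4 samples of a group came from separate animals, so p-values measure the spread between these samples, which may be technical.

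Keratins are the intermediate filament proteins of epithelial cells. Each filament is built from a type I and a type II keratin, so that the pairs Krt8 with Krt18, Krt4 with Krt13 and Krt6a with Krt16 mark simple, mucosal stratified and injured epithelium. Keratin-associated proteins bind hair keratins into the hair shaft. The cornified envelope is the shell of crosslinked protein under the membrane of dying squamous cells, in which transglutaminases join involucrin, loricrin, repetin, the small proline-rich (Sprr) proteins and the late cornified envelope (Lce) proteins. Sprr genes are also known as genes that inflamed simple epithelia switch on without forming an envelope.

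Promoters are shown first for Rptn, Krtap17-1, Krt79 and Krt23, which differed between OVA and saline below. Those of Sprr2b, Sprr2e and Sprr2k, whose differences did not reach the threshold, are shown beside them. These Sprr2 windows share an AP-1 element and an octamer that the other windows shown lack. The windows of Sprr2a1 and Sprr2g are not shown. Each run is the 250 bases before the RefSeq start of the gene on GRCm38.p6, written 5′ to 3′ on the strand of the gene. Capitals mark an AP-1 element (TGAGTCA or TGACTCA), an octamer (ATTTGCAT, or ATGCAAAT on the other strand) and a TATA element (TATAAA, or TTTATA on the other strand). The windows are chr3:92316455-92316704 (+), chr3:92351893-92352142 (+) and chr3:92432332-92432581 (+) for the Sprr2 genes, chr3:93393449-93393698 (+) for Rptn, chr11:99993995-99994244 (-) for Krtap17-1, chr15:101940325-101940574 (-) for Krt79 and chr11:99493121-99493370 (-) for Krt23.
Sprr2b: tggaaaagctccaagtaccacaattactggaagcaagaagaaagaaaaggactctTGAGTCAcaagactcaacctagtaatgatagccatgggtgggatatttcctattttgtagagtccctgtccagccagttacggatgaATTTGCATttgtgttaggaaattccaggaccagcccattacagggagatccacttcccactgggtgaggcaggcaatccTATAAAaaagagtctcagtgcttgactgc
Sprr2e: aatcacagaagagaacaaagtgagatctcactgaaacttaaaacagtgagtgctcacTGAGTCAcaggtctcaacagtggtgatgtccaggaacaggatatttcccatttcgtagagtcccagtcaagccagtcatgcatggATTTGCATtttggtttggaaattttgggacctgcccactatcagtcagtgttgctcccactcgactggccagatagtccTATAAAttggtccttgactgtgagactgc
Sprr2k: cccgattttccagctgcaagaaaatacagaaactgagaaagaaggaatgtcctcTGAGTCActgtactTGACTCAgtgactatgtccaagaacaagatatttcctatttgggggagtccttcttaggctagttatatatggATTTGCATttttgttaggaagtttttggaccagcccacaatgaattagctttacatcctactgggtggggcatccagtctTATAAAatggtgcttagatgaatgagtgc
Rptn: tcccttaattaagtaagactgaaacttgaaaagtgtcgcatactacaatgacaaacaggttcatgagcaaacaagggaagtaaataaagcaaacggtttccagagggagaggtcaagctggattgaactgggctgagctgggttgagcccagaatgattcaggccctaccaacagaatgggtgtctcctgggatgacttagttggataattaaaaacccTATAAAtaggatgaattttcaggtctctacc
Krtap17-1: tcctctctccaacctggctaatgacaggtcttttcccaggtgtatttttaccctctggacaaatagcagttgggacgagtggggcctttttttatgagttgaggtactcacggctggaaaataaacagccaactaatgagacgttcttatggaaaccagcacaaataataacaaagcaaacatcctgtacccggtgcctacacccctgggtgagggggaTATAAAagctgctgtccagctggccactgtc
Krt79: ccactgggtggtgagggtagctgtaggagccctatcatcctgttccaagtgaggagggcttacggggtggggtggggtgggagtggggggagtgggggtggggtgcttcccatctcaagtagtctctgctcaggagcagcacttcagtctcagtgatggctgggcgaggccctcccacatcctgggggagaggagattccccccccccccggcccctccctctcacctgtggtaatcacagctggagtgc
Krt23: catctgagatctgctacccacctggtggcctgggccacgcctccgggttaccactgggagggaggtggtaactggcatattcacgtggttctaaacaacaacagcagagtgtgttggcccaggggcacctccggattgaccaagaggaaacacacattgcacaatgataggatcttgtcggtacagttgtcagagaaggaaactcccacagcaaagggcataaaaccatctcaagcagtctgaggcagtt

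The 3 Sprr2 windows carried the AP-1 element TGAGTCA 193 to 196 bases before the start, and Sprr2k carried TGACTCA as well, 182 bases before it. All 3 held the octamer 108 or 109 bases before the start and the TATA element 29 bases before it. Rptn and Krtap17-1 held only the TATA element, 31 bases before the start, and the windows of Krt79 and Krt23 held none of these letters. No marked motif overlapped another. Of 32851 promoter windows of this length, 4.46% held the AP-1 letters, 1.6% the octamer and 12.4% the TATA letters on either strand. Among 82 windows of 81 members the counts were 15, 6 and 48, and of 10 windows of Sprr2 genes 7 held the AP-1 letters, 7 the octamer and 7 the TATA letters. A match is a description of the letters and not a measured site.

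The arrays differed in overall brightness. Their 75th percentiles lay between 78.0 and 793 intensity units. On 14 arrays 43.3% to 62.7% of probes were well above background, against 74.5% on wt_OVA 1 and 72.7% on wt_OVA 2. Replicates of a group correlated at 0.962 to 0.989 over all genes tested. Position 4 on the slides held wt_OVA 1, wt_OVA 4, ko_OVA 2 and ko_OVA 3 and no saline array. Array position, used below as a block, therefore overlaps in part with OVA, and the 2 cannot be fully told apart. Itgb6 itself gave signal in both genotypes, with log2 relative signals of -0.93 to -0.39 in wt and -1.71 to -0.73 in ko, which overlap. The sources used here do not give the deleted part of the gene, so this probe may lie outside it and does not check the genotype of single arrays. Markers of the labelled tissue were bright on all arrays, with mean log2 relative signals of 7.34 to 9.01 for club cell genes and 4.08 to 5.13 for ciliated cell genes. Striated muscle genes ran from -2.73 to 4.31 and thyroid genes from -2.80 to 0.94, so tissue outside the epithelium was present on some arrays. In tissue RNA, fewer cells of a type and less RNA per cell cannot be told apart.

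Most members were too dim to be tested. A spot counts as measured where the scanner software called it well above background, and a probe was kept when at least 4 of the 16 arrays called it so. By the best probe of each gene, 24 members were above background on no array, 31 on 1 to 3 arrays, 17 on 4 to 15 and 25 on all 16. The 39 members tested were 20 keratins, 7 keratin-associated proteins, 6 Sprr genes, 4 Lce genes, Lor and Rptn. The keratins Krt33a, Krt34 and Krt88 were kept, but lay at the lowest usable value, a floor of -3.32, on every array and were not tested.

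Genes of cornified epithelium were split between those above background on most arrays and those above it on few or none. Lor, Sprr1a and Lce1b were above background on all 16 arrays, and Rptn, Lce1l and Krt1, the filament partner of Krt10, on 14. Lor had group means of -0.38 to -0.01. Those of Sprr1a, Lce1b, Lce1l and Krt1 ran only from the floor of -3.32 to -2.16, so their signal was dim. Ivl, whose protein involucrin is laid down first in the envelope, was above background on 3 arrays, and Krt10, the suprabasal keratin of epidermis, on 2. Sprr1b was above background on 2 arrays and Sprr3, a gene of oesophageal epithelium, on 1. Of 14 Lce genes, 8 were above background on no array, as were 14 of 33 keratin-associated proteins and 2 of 12 Sprr genes, Sprr2d and Sprr2f.

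**Figure D1:**
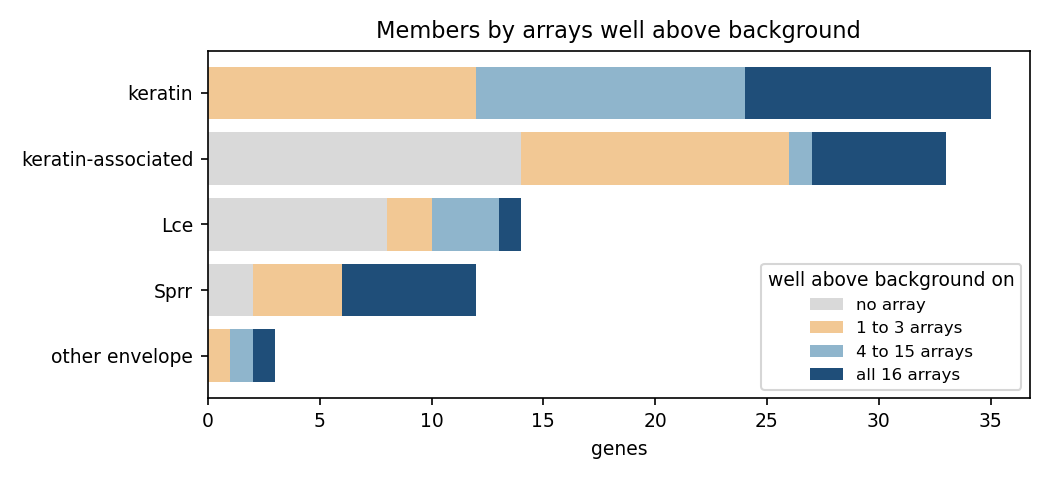
Bars count the 97 members by family (rows) and by the number of arrays on which the best probe of the gene was well above background (colours). All 35 keratins were above background on at least 1 array, against 19 of 33 keratin-associated proteins and 6 of 14 Lce genes.

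Values are given as the log2 of the signal over the 75th percentile of its own array, and differences are differences of group means on that scale, with the standard error (SE) of the limma fit. A gene is called when its Benjamini-Hochberg adjusted p over all 18567 genes and unnamed transcripts is under 0.05. For OVA against saline in wt, 4 of 39 members were called, 1 higher and 3 lower, where 2.61% of all genes were called, 1.56% higher and 1.06% lower. For OVA against saline in ko, 2 of 39 were called, both lower, where 0.749% of all genes were called and 0.269% were called lower. No member was called for ko against wt after saline (0.162% of all genes called, 0.0377% lower) or after OVA (0.145%, 0.0431% lower), or in the interaction of genotype and OVA (0%). In those 3 comparisons limma gave an unadjusted p under 0.05 for 5, 5 and 3 of the 39 members (12.8%, 12.8% and 7.69%), and for 6.3%, 5.08% and 3.06% of all genes. Averaged over both genotypes, which reuses the same arrays, 4 members were called, 1 higher and 3 lower, where 6.46% of all genes were, 3.72% higher and 2.74% lower. The median difference of the members was -0.15 with OVA in wt, 0.08 with OVA in ko and -0.20 in ko against wt after saline, and that of all genes was 0.00 in each.

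**Figure D2:**
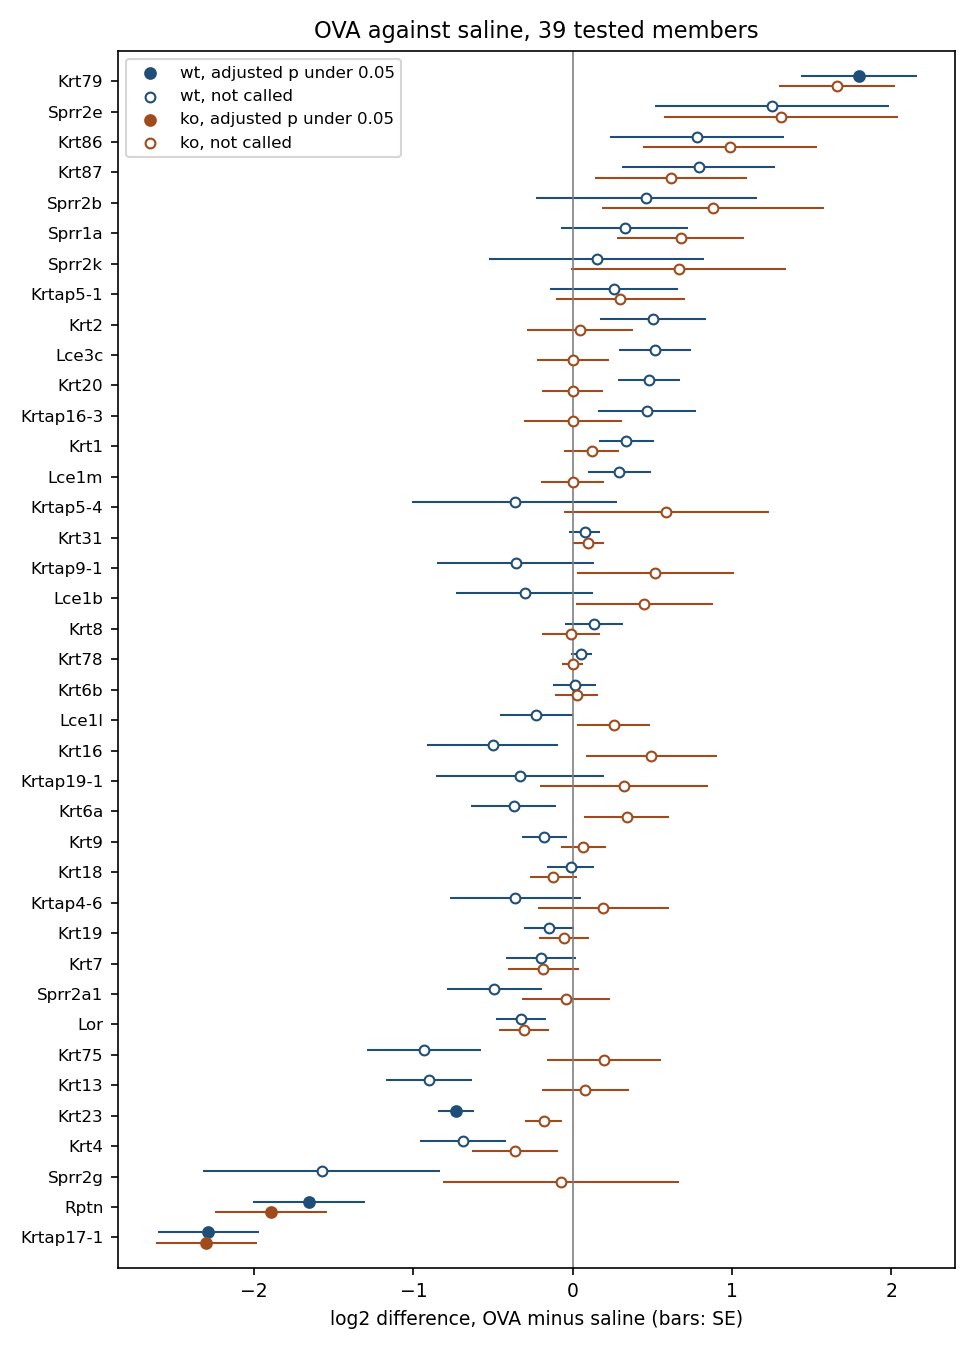
The log2 difference between OVA and saline (x axis) is shown for the 39 tested members (rows), in wt (blue) and in ko (brown), with bars of 1 SE. Filled points are called at an adjusted p under 0.05, which are Krt79, Krt23, Rptn and Krtap17-1 in wt and Rptn and Krtap17-1 in ko.

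Krtap17-1, a keratin-associated protein of the hair shaft, fell with OVA in both genotypes by the largest amount of the 39 members tested. The wt_saline arrays read 1.86, 0.77, 0.91 and 0.89, and the wt_OVA arrays -1.70, -0.39, -1.49 and -1.14. The ko_saline arrays read 1.28, 1.32, 1.62 and 0.97, and the ko_OVA arrays -0.65, -0.89, -0.72 and -1.75. Every OVA array was below every saline array. The log2 difference was -2.29 ± 0.32 (SE) in wt, an OVA-to-saline ratio of 0.205 (adjusted p = 0.00175), and -2.30 ± 0.32 in ko, a ratio of 0.203 (adjusted p = 0.00305). Averaged over genotypes it was -2.29 ± 0.22 (adjusted p = 4.59e-05). Within slides, with arrays of 1 group on a slide averaged, the difference was -3.0 to -1.28 over 3 slides in wt and -2.36 to -1.69 over 3 slides in ko. The call in ko was lost when arrays were scaled to their median (adjusted p = 0.0592) and when only the 8 ko arrays were fitted (adjusted p = 0.0771).

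Few genes of the hair follicle were measured beside it. Of 11 hair follicle genes that are not keratins, among them the transcription factors Hoxc13 and Foxn1, 3 were measured and none was called with OVA in either genotype, and limma gave none an unadjusted p under 0.05. Of the other 6 keratin-associated proteins tested none was called. Krtap17-1 was above background on all 16 arrays, and its values after OVA lay above the floor. Like Rptn, Krt23 and Krt79, it had only 1 probe, so no other probe checks its values.

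Repetin, the product of Rptn, is an S100-related protein that binds calcium and is crosslinked into the envelope. Rptn fell with OVA in both genotypes. The wt_saline arrays read -1.73, -1.23, -2.06 and -1.63, and all 4 wt_OVA arrays lay at the floor of -3.32. The ko_saline arrays read -1.28, -1.20, -1.47 and 0.38, and the ko_OVA arrays -3.32, -2.31, -2.35 and -3.19. Saline and OVA arrays did not overlap in either genotype.

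The log2 difference of Rptn was -1.65 ± 0.35 (SE) in wt (adjusted p = 0.0226) and -1.90 ± 0.35 in ko (adjusted p = 0.0224), and -1.78 ± 0.25 averaged over genotypes (adjusted p = 0.000767). Because the floor cuts the wt_OVA values, the size in wt is a lower limit, and with a floor 2 log2 units lower it was -2.06 and still called. With normexp background correction it was -0.85 in wt (adjusted p = 0.531), -1.02 in ko (adjusted p = 0.590) and -0.93 on average (adjusted p = 0.0828), and none was called. These calls are near the threshold. In wt the call was also lost with array position as a block (adjusted p = 0.0921) and without both wt_OVA 1 and wt_OVA 2 (adjusted p = 0.155). There, leaving out wt_saline 1, wt_saline 2, wt_saline 4, wt_OVA 1 or wt_OVA 3 gave adjusted p = 0.0607, 0.0890, 0.0549, 0.0733 and 0.0622. In ko, leaving out ko_OVA 1 or ko_OVA 4 gave adjusted p = 0.0510 and 0.0795, and fitting only the 8 ko arrays gave 0.268. The mean of the striated muscle genes ranged from -2.50 to 4.31 in ko_saline and from -2.73 to -1.22 in ko_OVA, and with that mean as a covariate the ko difference was -2.04 (adjusted p = 0.0566). Within slides the difference was -1.69 to -1.25 in wt and -2.73 to -0.98 in ko.

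Krt23, a type I keratin of glandular and other simple epithelia, fell with OVA in wt. The wt_saline arrays read 5.59, 5.46, 5.07 and 5.53, and the wt_OVA arrays 4.56, 4.74, 4.68 and 4.73, with no overlap. The ko_saline arrays read 5.47, 5.42, 5.24 and 5.29, and the ko_OVA arrays 5.07, 5.07, 5.39 and 5.18, which overlap. The difference was -0.73 ± 0.12 (SE) in wt, a ratio of 0.602 (adjusted p = 0.00397), and -0.18 ± 0.12 in ko (adjusted p = 0.704).

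A fall of Krt23 in one genotype only was not shown. The ko_OVA mean was above the wt_OVA mean by 0.49 ± 0.12 (unadjusted p = 0.00073, adjusted p = 0.242), and all 4 ko_OVA arrays were above all 4 wt_OVA arrays. The interaction was 0.55 ± 0.16 (unadjusted p = 0.00448, adjusted p = 0.993). The wt call was lost with normexp background correction (adjusted p = 0.140), with scaling to the array median (adjusted p = 0.0812) and with array position on the slide as a block (adjusted p = 0.0733). Within slides the wt difference was -0.86 to -0.45.

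Krt79, a type II keratin of the hair canal and the sebaceous duct, rose with OVA in wt. The wt_saline arrays read -2.04, -2.05, -2.30 and -2.10, and the wt_OVA arrays -0.04, -0.94, -0.18 and -0.12. The ko_saline arrays read -3.01, -2.79, -3.20 and -2.94, and the ko_OVA arrays -2.23, -0.20, -0.76 and -2.10. OVA and saline arrays did not overlap within a genotype, but ko_OVA split into a pair near the wt_saline level and a pair well above it.

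The Krt79 difference was 1.80 ± 0.36 (SE) in wt, a ratio of 3.48 (adjusted p = 0.0170), and 1.66 ± 0.36 in ko, a ratio of 3.17, which missed the threshold (adjusted p = 0.0533). Averaged over genotypes it was 1.73 ± 0.26 (adjusted p = 0.00123). Without wt_saline 2, wt_OVA 1 or wt_OVA 3 the wt call was lost (adjusted p = 0.0506, 0.0699 and 0.0543). It was also lost with normexp correction, where the difference was 1.11 (adjusted p = 0.178), with median scaling (adjusted p = 0.106), with array position as a block (adjusted p = 0.0921) and without both wt_OVA 1 and wt_OVA 2 (adjusted p = 0.0872). Without ko_OVA 1 or ko_OVA 4 the ko difference was called (adjusted p = 0.0147 and 0.0402). All 4 ko_saline arrays were below all 4 wt_saline arrays, by -0.87 ± 0.36 on average (unadjusted p = 0.0319, adjusted p = 0.762), and when only those 8 arrays were fitted the adjusted p was 0.0362. Within slides that difference was -0.97 to -0.84. The interaction for Krt79 was -0.14 ± 0.51 (adjusted p = 0.997).

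**Figure D3:**
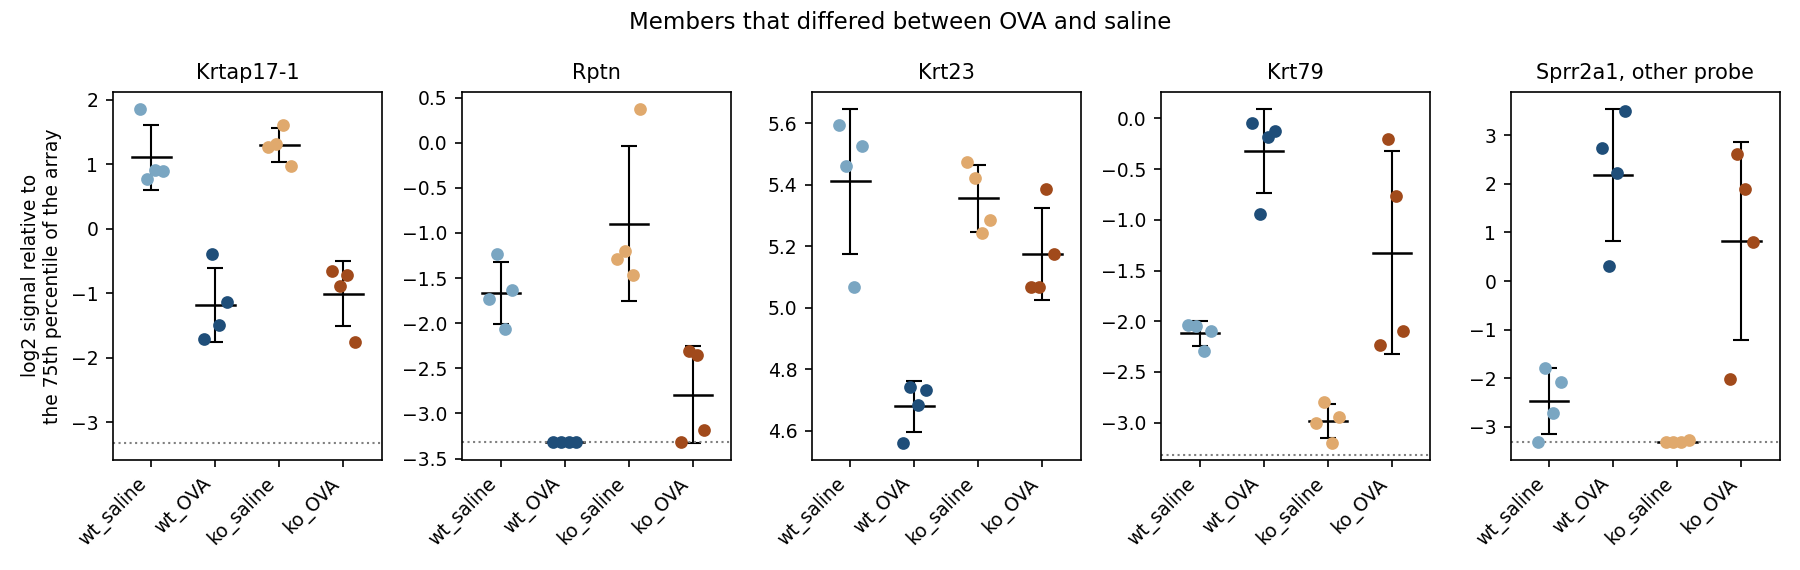
The log2 of the signal over the array's 75th percentile (y axis) is shown for 16 arrays in 4 groups (x axis). Points are arrays, lines are group means with 1 SD and the dotted line is the floor of -3.32. Krtap17-1 and Rptn are lower on every OVA array than on any saline array of the same genotype, and Krt79 and the other probe of Sprr2a1 are higher.

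The other keratins of simple epithelia differed little between OVA and saline, and none was called. Krt8 and Krt18, the first keratin pair of simple epithelia, gave OVA differences of 0.13 and -0.01 in wt and -0.01 and -0.12 in ko. Krt7 and Krt19, keratins of glands and ducts, gave -0.20 and -0.15 in wt and -0.18 and -0.05 in ko. The largest standard error of these differences was 0.22. Krt8 was lower in ko_OVA than in wt_OVA by -0.46 ± 0.18 without being called (adjusted p = 0.884), and its other probe gave -0.25.

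Krt4 and Krt13, the suprabasal pair of mucosal stratified epithelium that also marks the hillock cells of the trachea, were lower with OVA in wt without being called. Krt13 read 3.54, 4.12, 2.85 and 3.50 in wt_saline and 1.95, 2.59, 2.71 and 3.14 in wt_OVA, and the groups overlapped. The difference was -0.90 ± 0.27 (SE, adjusted p = 0.1005) for Krt13 and -0.69 ± 0.27 (adjusted p = 0.214) for Krt4. Leaving out wt_saline 3 brought Krt13 under the threshold (-1.12, adjusted p = 0.0370), and without both wt_OVA 1 and wt_OVA 2 it was -0.57 (adjusted p = 0.468). In ko the difference was 0.08 for Krt13 and -0.36 for Krt4. Averaged over genotypes Krt4 differed by -0.52 (adjusted p = 0.129), and by -0.65 without ko_saline 3 (adjusted p = 0.0377). The interaction for Krt13 was 0.98 ± 0.38 (unadjusted p = 0.0225, adjusted p = 0.993), and the other Krt13 probe gave -0.91 with OVA in wt and 0.05 in ko.

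Marker genes of basal cells and of hillock and suprabasal cells are given beside Krt4 and Krt13. Of 11 measured basal cell genes 10 had a negative OVA difference in wt, with a median of -0.46 and none called. Of all 18567 genes 9049 were negative there. The basal list mean was 2.78 to 3.61 in wt_saline and 2.81 to 3.10 in wt_OVA. Hillock and suprabasal genes that are not keratins had list means of 4.20 to 4.57 in wt_saline and 3.93 to 4.41 in wt_OVA, with 0 of 8 called in wt. With OVA in ko, 8 of the 11 basal genes were positive, with a median of 0.29. There 3 of the 8 hillock genes were positive, with a median of -0.06. The part of either list in the Krt4 and Krt13 values was not tested.

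Krt75, a keratin of the companion layer of the hair follicle, read 1.80, 1.60, 0.27 and 1.48 in wt_saline against 0.16 to 0.73 in wt_OVA and -0.39 to 0.98 in ko_saline. It was lower with OVA in wt by -0.93 ± 0.36 (SE, adjusted p = 0.201) and lower in ko_saline than in wt_saline by -1.21 ± 0.36 (unadjusted p = 0.00434, adjusted p = 0.446). Neither was called. The first was called when wt_saline 3, the array of wt_saline with the lowest value, was left out (adjusted p = 0.0497).

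Krt6a and Krt16, which epithelia switch on after injury, were dim and not called. Krt6a was near the floor, with group means of -3.29 to -2.78, whereas Krt16 was above background on all 16 arrays. Krt16 ran from -2.63 to -1.02 in wt_saline, -2.73 to -1.78 in wt_OVA, -3.15 to -2.04 in ko_saline and -2.96 to -1.54 in ko_OVA. Krt16 was lower in ko_saline than in wt_saline by -0.98 ± 0.41 (adjusted p = 0.763). Krt6a was above background on 11 arrays and gave -0.37 and 0.34 with OVA in wt and in ko.

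The hair keratins Krt86 and Krt87 were higher with OVA without being called. Krt86 differed by 0.78 ± 0.55 (SE) in wt and 0.99 ± 0.55 in ko, and Krt87 by 0.79 and 0.62. In ko_saline Krt86 ran from the floor to -0.19, so the spread inside that group was larger than the difference. Averaged over genotypes Krt86 differed by 0.89 ± 0.39 (adjusted p = 0.216), by 1.2 without ko_saline 3 (adjusted p = 0.0245) and by 0.49 with normexp correction (adjusted p = 0.434). Their genes are close copies, and the probes may not tell them apart.

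A further 5 members, Krt20, Krt78, Krtap16-3, Lce1m and Lce3c, lay at the floor on all 12 arrays outside wt_OVA and left it on wt_OVA 1. Krt20 and Lce3c also left it on wt_OVA 2. These are the arrays with the highest shares of probes above background, 74.5% and 72.7%. Krt20, a keratin of gut and bladder epithelium, read -2.19 and -2.53 there, and Lce3c read -1.90 and -2.67. None of the 5 was called, and the part of that background in the values was not tested.

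Sprr genes, whose proteins bridge other envelope proteins, varied widely inside each group. Sprr2e ran from -1.79 to 0.42 in wt_saline, -0.74 to 1.28 in wt_OVA, -3.01 to -0.77 in ko_saline and -2.66 to 1.04 in ko_OVA. Its OVA difference was 1.25 ± 0.74 (SE) in wt and 1.31 ± 0.74 in ko, and 1.28 ± 0.52 averaged over genotypes (adjusted p = 0.177). The average was 1.66 without ko_OVA 1 (adjusted p = 0.0369) and 0.46 with array position as a block (adjusted p = 0.834). Sprr2b gave 0.46 in wt and 0.88 in ko, Sprr2k 0.15 and 0.67, and Sprr1a, whose protein is induced in many stressed tissues, 0.33 and 0.68, with none called. Sprr1a lay at the floor on all 4 ko_saline arrays and on 1 array each of wt_OVA and ko_OVA.

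Sprr2g was lower with OVA in wt without being called. It read 2.69, 5.30, 2.38 and 4.10 in wt_saline and 1.25, 3.05, 1.53 and 2.32 in wt_OVA, which overlap. The difference was -1.58 ± 0.74 (SE, adjusted p = 0.307) in wt and -0.07 ± 0.74 in ko, and it was not called.

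For Sprr2a1 the result depended on the probe. The gene has 2 probes with the same RefSeq accession, and the brighter, which stands for the gene in the counts above, gave -0.49 with OVA in wt and -0.04 in ko, with no value on wt_saline 4 because its spot was flagged as an outlier. The other probe, A_52_P18887, was above background on all 16 arrays. It read -3.32, -1.78, -2.71 and -2.07 in wt_saline and 2.73, 0.31, 2.22 and 3.50 in wt_OVA. It read -3.32, -3.32, -3.32 and -3.26 in ko_saline and -2.02, 2.61, 1.89 and 0.81 in ko_OVA. Saline and OVA arrays were apart in both genotypes.

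When each kept probe was fitted on its own over 24385 probes, this probe rose with OVA by 4.66 ± 0.83 (SE) in wt, a ratio of 25.2 (adjusted p = 0.0103), and by 4.13 ± 0.83 in ko, a ratio of 17.5 (adjusted p = 0.0371). In that fit 2.21% of probes were called in wt and 0.619% in ko. Averaged over genotypes the rise was 4.39 ± 0.59 (adjusted p = 0.000655), where 5.74% of probes were called. The floor holds 1 wt_saline and 3 ko_saline values up, so these sizes are lower limits. In wt the call was lost under 1 of 27 alternatives, array position as a block (3.27, adjusted p = 0.0872), and in ko under 19 of 27, where the adjusted p reached 0.257 when only the 8 ko arrays were fitted. The differences were 2.38 to 6.81 within slides in wt and 1.30 to 5.93 in ko. The interaction was -0.53 ± 1.17 (adjusted p = 0.999).

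Sprr2a1 has near-identical copies, Sprr2a2 and Sprr2a3, which had no probe matched to them, and which copy either probe reports was not tested. Mucous cell genes also rose on these arrays, with 10 of 12 called in wt and 9 of 12 in ko. Of all genes 1.56% were called higher in wt and 0.479% in ko. The mucous list means were 1.43 to 2.01 in wt_saline, 3.71 to 4.68 in wt_OVA, 1.35 to 1.54 in ko_saline and 2.76 to 4.81 in ko_OVA. The lowest ko_OVA mean was that of ko_OVA 1, the array that was also lowest of ko_OVA for this probe, for Sprr2e and for Krt79. It was the brightest ko_OVA array as well, with a 75th percentile of 631 intensity units. Sprr2b, Sprr2k, Krtap4-6 and the brighter Sprr2a1 probe were also lowest there within ko_OVA. The part of mucous cells or of brightness in these values was not tested.

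Lor, the gene of loricrin, the main protein of the epidermal envelope, was above background on all 16 arrays. It ran from -0.17 to 0.21 in wt_saline, -0.76 to -0.14 in wt_OVA, -0.09 to 0.06 in ko_saline and -0.72 to -0.07 in ko_OVA, so the groups overlapped. The OVA differences were -0.32 ± 0.16 (SE) in wt and -0.30 ± 0.16 in ko, and -0.31 ± 0.11 averaged over genotypes (unadjusted p = 0.0133, adjusted p = 0.117). With array position as a block the average was called (-0.49, adjusted p = 0.0341). Lce1b, the Lce gene above background on all arrays by its brighter probe, gave -0.30 and 0.45 with OVA in wt and ko. Its other probe was above background on 0 arrays. None of the 4 tested Lce genes was called.

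Values of many members followed the brightness of the array. Over 16 arrays, the log2 relative signal of Krtap4-6 had Pearson's r = -0.94 (permutation p = 1e-05, the smallest that 100000 permutations can give) and Spearman's rho = -0.90 with the log2 75th percentile. Adjusted over the 39 members, 16 correlations were negative with a permutation p under 0.05 and none was positive. They included Krtap19-1 (-0.86), Krtap5-1 (-0.86), Sprr2a1 by its brighter probe (-0.82, 15 arrays), Lce1b (-0.81), Sprr1a (-0.79), Sprr2k (-0.79), Sprr2b (-0.77) and Sprr2e (-0.68). All 16 stayed negative without wt_OVA 4 and ko_OVA 4, the arrays farthest from the median brightness. On the 12 arrays of the larger scan, r was -0.94 for Krtap4-6, -0.90 for Krtap19-1 and -0.83 for Sprr2k.

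The members' median r was -0.36, against -0.01 for all genes tested, and 16 of 39 members had r below -0.6, as had 8.62% of all genes. The relative signal is divided by the 75th percentile it is set against, so the measures are not independent. The same 16 were negative under median scaling, and 14 of them under normexp correction and in the deposited series table. Krt18 turned positive under both, to 0.12 and 0.48, Krt19 under normexp, to 0.14, and Krt8 in the deposited table, to 0.68. Krtap17-1 (0.35), Rptn (0.10), Krt23 (0.06) and Krt79 (-0.25) were not among the 16, though with group means removed Krtap17-1 had r = 0.62. With the 75th percentile as a covariate their OVA differences in wt were -2.30, -1.65, -0.73 and 1.80, all called. The other probe of Sprr2a1 had r = -0.34. With the same covariate the wt difference of Sprr2e was 1.28 (adjusted p = 0.221).

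**Figure D4:**
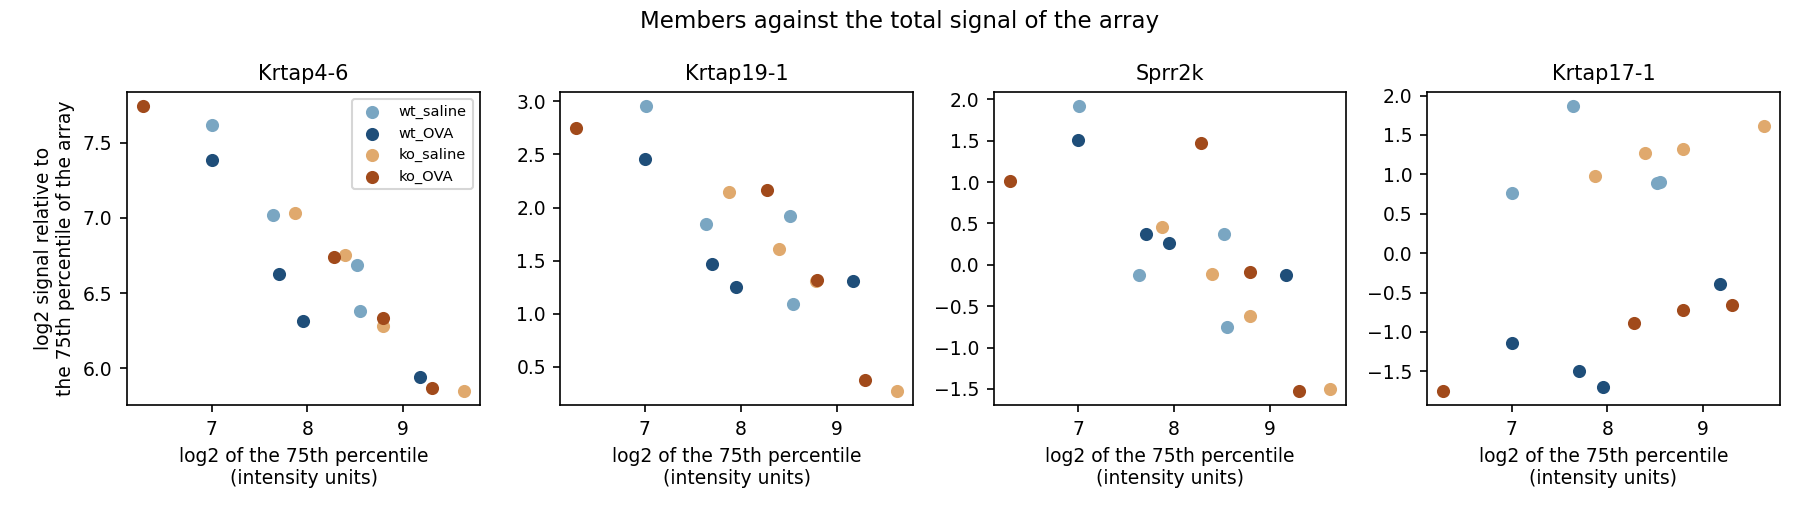
Log2 relative signal (y axis) is plotted against the log2 75th percentile of the array (x axis) for 16 arrays, coloured by group. Krtap4-6, Krtap19-1 and Sprr2k decline from dim to bright arrays (r = -0.94, -0.86 and -0.79), whereas Krtap17-1 separates saline from OVA arrays (r = 0.35).

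Keratins that share a filament were compared across the 16 arrays, with 4 pairs measured on both sides. Krt10 was not measured, which left out its pair with Krt1. Krt8 and Krt18 had r = 0.82 (permutation p = 9e-05, adjusted 0.00036) and rho = 0.84 (adjusted p = 0.00024 by permutation). Krt4 and Krt13 had r = 0.74 (permutation p = 0.00067, adjusted 0.00134) and rho = 0.78 (adjusted p = 0.00116 by permutation). Krt7 and Krt19 had r = 0.50 (permutation p = 0.0489, adjusted 0.0489) and rho = 0.54 (adjusted p = 0.0447 by permutation).

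Without the 2 arrays farthest from the median on the first keratin, r was 0.74, 0.75 and 0.50 for these pairs. With group means removed it was 0.84, 0.66 and 0.51, and on the 12 arrays of the larger scan 0.94, 0.73 and 0.53. Krt6a and Krt16 had r = 0.59 (permutation p = 0.0133, adjusted 0.0178), but rho was 0.42 (adjusted p = 0.110 by permutation) and r fell to 0.38 without wt_saline 4 and ko_OVA 2, so that relation rests on those arrays with the scaling used here. With normexp correction, r of Krt6a and Krt16 was 0.93, and 0.92 without 2 arrays, and rho of Krt7 and Krt19 was 0.25 (adjusted p = 0.355 by permutation). Krt8 and Krt18 each also followed the brightness of the array (r = -0.73 and -0.80). With normexp correction so did Krt6a and Krt16 (r = -0.85 and -0.86). The part of brightness in the correlations of these pairs was not tested.

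**Figure D5:**
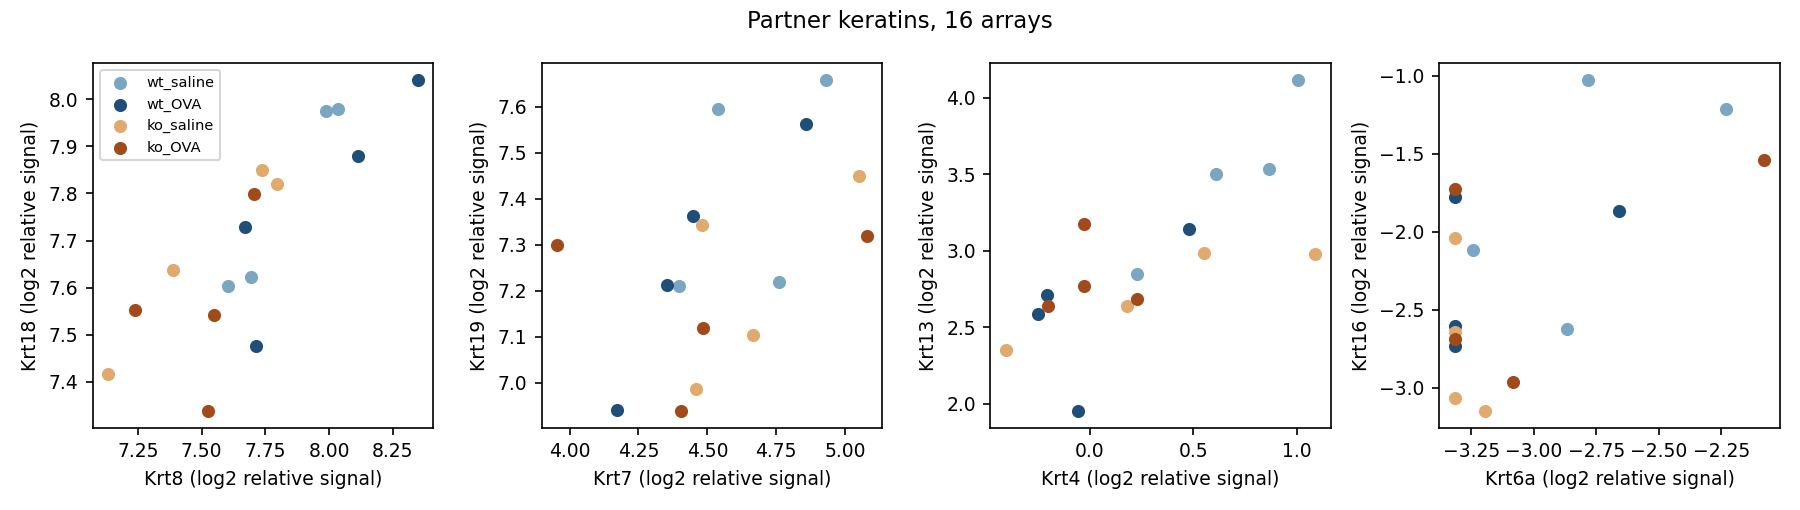
Each panel plots the log2 relative signal of a type II or partner keratin (x axis) against its partner (y axis) over 16 arrays, coloured by group. Krt8 with Krt18 and Krt4 with Krt13 line up (r = 0.82 and 0.74), Krt7 with Krt19 more loosely (r = 0.50), and in Krt6a many arrays lie at the floor of -3.32.

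After saline, the ko mean was below the wt mean for all 6 Sprr genes tested, with a median difference of -0.76 and none called, where 8747 of all 18567 genes were lower. The lowest was Sprr2g at -0.93 ± 0.74 (SE) and the nearest to 0 was Sprr2a1 at -0.40 ± 0.30. Those of Sprr2b, Sprr2e, Sprr2k and Sprr2g rested largely on wt_saline 2. Without it the median of the 6 was -0.26, with -0.24 for Sprr2b, -0.25 for Sprr2e, -0.28 for Sprr2k and -0.37 for Sprr2g. Sprr2a1 was then -0.21, and Sprr1a was -0.58 against -0.83 with all arrays. On the slide that holds wt_saline 2, Sprr2b, Sprr2e, Sprr2k and Sprr2g differed by -2.84, -2.78, -2.97 and -3.15. Sprr2b, Sprr2e and Sprr2k were higher in ko on both other slides, by 0.01 to 0.35. Sprr1a was lower in ko on all 3 slides, by -1.58 to -0.54. The 75th percentiles were 235 to 793 intensity units in ko_saline and 129 to 375 in wt_saline. With the 75th percentile as a covariate the differences were -0.08 for Sprr2b, -0.10 for Sprr2e, -0.19 for Sprr2k and -0.55 for Sprr2g. They were -0.45 for Sprr1a and -0.04 for Sprr2a1, and none of the 6 was called. The cause of the differences between ko_saline and wt_saline was not tested. After OVA 4 of the 6 were lower in ko, with a median of -0.29. The interaction, which uses the same wt_saline arrays, was positive for all 6, from 0.06 for Sprr2e to 1.5 for Sprr2g, and limma gave none of them an unadjusted p under 0.05. Over both comparisons of ko with wt, the members with the largest differences were Krt75, Krt16 and Sprr2g after saline and Krt79 (-1.0 ± 0.36, adjusted p = 0.884) after OVA, and none was called.

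Other genes of squamous differentiation were read from lists of genes outside the keratin and envelope families. Of 28 squamous and oesophageal genes 14 were measured, and Klk8, a protease that sheds squames, fell with OVA in wt (-0.89 ± 0.19 SE, adjusted p = 0.0209) as the 1 gene called of 14. Of 24 measured squamous transcription factors 1 was called, Elf5, an ETS factor of glandular epithelia, which fell in wt (-1.18 ± 0.24, adjusted p = 0.0172). In ko neither list had a called gene, and limma gave an unadjusted p under 0.05 for 4 of 14 and 7 of 24. Their medians with OVA in wt were -0.20 and -0.17, and those in ko 0.05 and 0.06. Of all genes tested, limma gave an unadjusted p under 0.05 for 16.5% with OVA in wt, 9.73% in ko and 19.7% on average.

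Averaged over genotypes, 3.72% of all genes were called higher and 2.74% lower. There Ppl and Evpl, the periplakin and envoplakin scaffold on which the envelope is built, fell by 0.41 and 0.59 on the log2 scale (adjusted p = 0.0396 and 0.0288). They were 2 of 12 measured scaffold and desmosome genes. Both also belong to the squamous list, of which 3 of 14 fell on average, Klk8 by 0.76. Of the transcription factors 4 of 24 fell on average, Elf5 by 0.96, Notch3 by 0.50, Cebpa by 0.45 and Grhl1 by 0.44. Among 8 hillock genes Anxa8, an annexin, rose by 0.32 (adjusted p = 0.0397). None of 13 measured cornification enzymes and lipid genes was called in any of these OVA comparisons, with medians of 0.08 in wt and 0.07 in ko and an unadjusted p under 0.05 from limma for 1, 0 and 0 of them in wt, in ko and on average. Of 11 measured genes of the epidermal differentiation complex outside the families above, none was called with OVA in wt (unadjusted p under 0.05 for 5 by limma) or in ko (0). Their OVA differences in wt ran from -3.67, the lowest of all genes tested, to 0.21. Their highest interaction, 5.12, was also the highest of all genes and was not called. A list of linkers that bind keratin filaments also held the filament genes Vim, Des, Bfsp1 and Bfsp2, which are not linkers. Of its 14 measured genes, none was called in either genotype, with an unadjusted p under 0.05 for 5 and 4 by limma. On average 2 fell, Ppl and Bfsp2, a lens filament protein (-0.47).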

How the data were processed

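RNA of 16 samples, 4 in each of 4 groups, was read on one-colour 4x44K arrays. Scanner files hold background-subtracted processed signals in intensity units, as deposited (Agilent Feature Extraction 10.5.1.1 per the file headers, 10.1 per the submitters' processing notes). Log2 values of the series table, as deposited, follow the ranks of the median spot intensity (rho at least 0.99999) and served as an alternative. Outlier spots were dropped and repeated spots averaged. Each array was scaled to its 75th percentile and put on the log2 scale with a floor of -3.32, so a floored gene has only a bound. Probes needed signal well above background on 4 of 16 arrays (25615 of 41174 passed), and the brightest stood for each gene. RefSeq accessions gave a symbol to 24844 of all probes. All arrays were fitted in limma 3.58.1 (R 4.3.3), 1 mean per group, with Benjamini-Hochberg adjustment. The script was tested on simulated data. Correlations used 100000 permutations (scipy 1.17.1), two-sided. Sequences are those of RefSeq, GRCm38.p6.

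The members and lists were chosen with earlier results of these data known. Genes named were those called, with the 3 largest differences of a comparison, above background on all 16 arrays, or Sprr and single envelope genes, which gave 26 members, plus called list genes. Members named outside this rule were chosen after their values were seen. Alternatives changed background, scaling, floor, filter, probe choice, blocks, the arrays fitted and the source of the values. The number of arrays limits the precision.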

Additional observations from a re-analysis of the deposited data

Results flagged for a closer look

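In 101 pairs of group and member, 6 had an array whose gap to the nearest of the other 3 was larger, relative to the range of the group, than Dixon's critical value for 4 samples. Chance flags about 1 in 20 such pairs. Krt79 read -0.94 on wt_OVA 2, below -0.18 to -0.04 on the other wt_OVA arrays. Krtap17-1 read 1.86 on wt_saline 1, above 0.77 to 0.91, and Lor read 0.21 on the same array, above -0.17 to -0.14. Krtap5-1 read -1.90 on wt_saline 2, where the other wt_saline arrays lay at the floor of -3.32. Lce1b read -1.89 on wt_OVA 4, above -3.32 to -3.10. Rptn read 0.38 on ko_saline 4, above -1.47 to -1.20.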

How the results depend on the processing

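Krtap17-1 kept its call in wt under all 31 alternatives run. With OVA in wt, 4 members were called, and the count was 1 with normexp background, 2 with median scaling, 1 with array position as a fixed block, 2 without the arrays wt_OVA 1 and wt_OVA 2, and 2 to 6 when each array was left out in turn, and 2 without wt_saline 2, wt_OVA 1 or wt_OVA 3. With OVA in ko, 2 were called, and the count was 1 with normexp background, 1 with median scaling, 1 with striated muscle signal as a covariate, 1 without the arrays wt_OVA 1 and wt_OVA 2, and 0 when only the arrays compared were fitted, where 7 of all genes were called. Leaving each array out in turn kept that count at 2, but without ko_OVA 1 or ko_OVA 4 Krt79 took the place of Rptn. For ko against wt after saline, 0 became 1, Krt79, when only the arrays compared were fitted. Averaged over genotypes, 4 became 2 with normexp background and 4 to 6 when each array was left out. The cause of these shifts was not tested. No value called with all arrays reversed. Under median scaling the median of all genes with OVA in wt was -0.25 and 39 genes were called higher and 61 lower, against 289 and 196 in the setting reported, and with array position 72 higher and 22 lower. Of 127 further uncalled values of named members, 53 kept their sign under every alternative run and 1 was called under one, Sprr2a1 averaged over genotypes with the mean of its probes. The 75th percentile, striated muscle, single-probe and 2-array alternatives were chosen after seeing the data.

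With the replicate number as a block the counts were 4 in wt, 2 in ko, 0 for ko against wt after saline, 0 after OVA, 0 in the interaction and 4 on average. The numbers do not pair the samples: same-numbered arrays deviated with correlations of -0.221 to 0.402, and 4 of 16 correlated best with their own number. Among the members the block changed 1 call, that of the other Sprr2a1 probe in ko (adjusted p = 0.0737).

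Values at the floor have only a bound, and a member not above background was not detectable at this signal, which does not show that it is absent.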
